A study of Saccharomyces cerevisiae with 14 samples.

Results

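The genes described here are the 51 genes *RPL1A* to *RPL28* of budding yeast, which encode the lower-numbered proteins of the large (60S) subunit of the cytosolic ribosome. The group is defined by gene name and systematic identifier, not by a cutoff on measured values, and all 51 were found among the 6387 open reading frames on the arrays. They form 23 pairs of duplicated genes, called paralogs and lettered A and B, and 5 genes without a second copy, *RPL3* (YOR063W), *RPL5* (YPL131W), *RPL10* (YLR075W), *RPL25* (YOL127W) and *RPL28* (YGL103W).

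Ribosomal proteins bind ribosomal RNA in a fixed order during assembly, which starts in the nucleolus and ends in the cytoplasm, and each ribosome needs a copy of almost every one of them. In yeast their mRNAs are among the most abundant, and their genes are transcribed together through Rap1p, Fhl1p, Ifh1p and Sfp1p under the control of growth signals such as the TOR pathway. Repression of the whole group is a well-known part of the yeast response to many stresses.

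The study followed *S. cerevisiae* strain NRRL Y-12632 through the lag phase after 5-hydroxymethylfurfural (HMF), an aldehyde inhibitor formed when plant biomass is pretreated with acid, was added to synthetic complete medium at 30 mM. RNA came from HMF-treated cultures and from untreated control cultures of the same strain at 10, 30, 60 and 120 min, so that there were 8 groups and 14 arrays. Each group had 2 biological replicates, except those of 120 min, which had 1 array each and so no replicate. The paper describes 2 replicated experiments per condition, with cells harvested from the cultures over time. Arrays of different times may therefore share a culture. The tests here treated all arrays as independent, and their p values may be too small if cultures were shared. The test RNA was labelled with Cy3 and the reference, RNA of the 0 min time point, with Cy5 on every array. A dye effect of a probe therefore stays in each ratio to 0 min but cancels in the difference between HMF and control. The paper does not say whether a single pool of 0 min RNA served all arrays, so a difference between references may remain. Values are log2 ratios to 0 min less the median over all features of the same array, so that a negative value means a lower ratio than that of the median gene and gives no number of transcripts per cell.

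Before this centring the array medians lay between -0.32 and 0.64 on 13 arrays and at 1.29 on control replicate 2 of 10 min, which therefore stood apart in level. Without that array the median difference of the large-subunit genes at 10 min was -0.77 in place of -0.89, and 49 of them were called in the mean of the 4 times, as with it. The induction of *ADH7*, an alcohol dehydrogenase gene, separated the treatments, with values of 4.73 to 6.35 on the 7 HMF arrays and of -3.39 to 0.11 on the 7 control arrays. Precision was limited by the small number of arrays.

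The large-subunit genes were repressed together in HMF-treated cultures. Averaged over the 4 times, the median of the 51 differences between HMF and control was -0.93, or 1.90-fold lower, against a median of 0.00 over all 6387 features. With limma's moderated test and Benjamini-Hochberg adjustment over all features, 49 of the 51 genes were lower with HMF at an adjusted p of at most 0.05 and none was higher, where 6.25% of all features were called lower. The adjusted p of the remaining genes was 0.057 for *RPL14A* (YKL006W) and 0.078 for *RPL22A* (YLR061W), and with replicate number as a block *RPL14A* was also called (adjusted p = 0.027). All 51 genes lay below control at each of the 4 times, as did 17.8% of all features. On the scale as deposited, without centring, the median difference was -1.12 for these genes and -0.19 for all features, the median standard error was 0.35 in place of 0.14, and 7 of the 51 genes were called (*RPL8A*, *RPL8B*, *RPL11A*, *RPL12A*, *RPL15A*, *RPL16A* and *RPL22B*) beside 1.46% of all features. Of all calls 78.8% were then in the lower direction, compared with 55.1% after centring.

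The repression showed on every array. The median of the 51 genes was -1.10 and -1.12 on the HMF arrays of 10 min, -1.45 and -1.20 (30 min), -0.87 and -0.97 (60 min), and -0.82 (120 min). In the controls it was -0.37 and -0.10 (10 min), -0.15 and -0.09 (30 min), -0.11 and -0.26 (60 min), and -0.06 (120 min). The 2 sets of medians did not overlap. Every one of the 51 genes was below 0 on all 7 HMF arrays, and the genes lay close together, with an SD among them of 0.13 to 0.42 on an array where that of all features was 0.61 to 0.99.

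**Figure D1:**
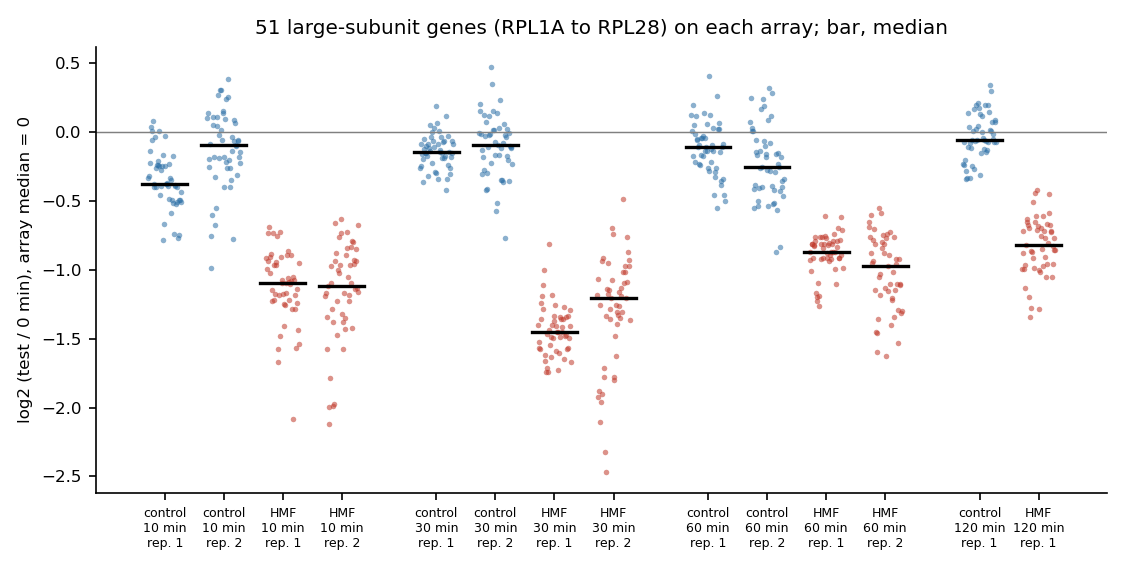
Centred log2 ratios to 0 min (vertical axis) of the 51 large-subunit genes on each of the 14 arrays, with HMF in red, control in blue and a bar at the median. The medians lie between -1.45 and -0.82 on the HMF arrays and between -0.37 and -0.06 on the control arrays, and the lowest points belong to replicate 2 of HMF at 10 and 30 min.

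For 46 of the 51 genes even the highest of the 7 HMF values was below the lowest of the 7 control values, a separation that 3.84% of all features showed. In the other 5 genes some arrays overlapped. On HMF 6 of 7 arrays lay below every control array for *RPL14B* (YHL001W) and *RPL22B* (YFL034C-A), 5 for *RPL4A* (YBR031W) and *RPL22A*, and 3 for *RPL14A*. Ranked by the mean difference from the lowest of 6387 features, the 51 genes took places 76 to 740 with a median of 203. No gene lay more than 3 scaled median absolute deviations from the median of the group.

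**Figure D2:**
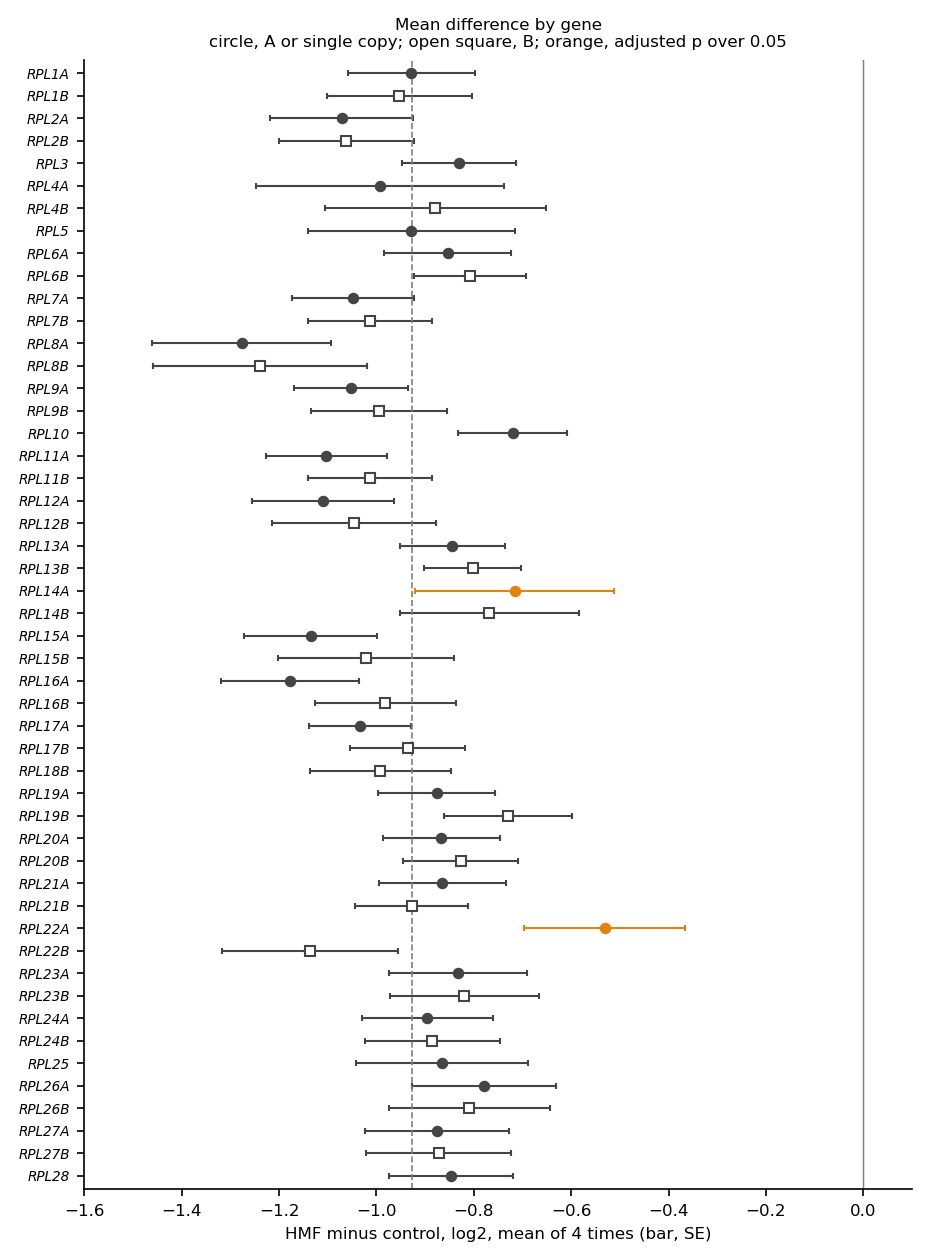
Mean difference between HMF and control over the 4 times (log2, bar of 1 standard error) for the genes reported singly, with A and unpaired genes as circles, B genes as open squares and the 2 genes over the adjusted p limit in orange. The dashed line marks the group median of -0.93, and the differences run from -1.28 for *RPL8A* to -0.53 for *RPL22A*.

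Of the genes whose proteins lie near the peptidyl transferase centre, where peptide bonds are made, 4 were grouped here after their values were seen. All 4 were called at 30 min and in the mean of the 4 times. So were 29 and 49 of all 51 genes, beside 1.75% and 6.25% of all features. A difference between places in the ribosome was not tested. *RPL3*, whose protein reaches towards that centre, read -0.69 and -1.12 (10 min), -1.24 and -1.25 (30 min), -0.82 and -0.60 (60 min) and -0.96 (120 min) with HMF. Its control values were 0.04 and -0.09, -0.20 and -0.13, 0.05 and 0.01, and -0.34 at the same times, all above every HMF value. The mean difference was -0.83 (SE 0.12, adjusted p = 0.0031). *RPL2A* (YFR031C-A) and *RPL2B* (YIL018W), whose protein contacts the RNA of the same centre, had the lowest and the fifth lowest 30 min differences of the 51 genes, -1.80 and -1.64, or 3.49-fold and 3.13-fold lower. Their mean differences were -1.07 and -1.06.

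*RPL10* encodes one of the last proteins to join the subunit, in the cytoplasm, after delivery by its chaperone Sqt1p. With HMF it read -0.76 and -0.88 (10 min), -0.82 and -0.95 (30 min), -0.76 and -0.55 (60 min) and -0.51 (120 min). The control values were 0.01 and 0.27, 0.05 and 0.12, -0.04 and 0.17, and -0.27. The mean difference of -0.72 (SE 0.11, adjusted p = 0.0047) was the third smallest in size of the group. On centred values *RPL10* did not reach 2-fold below the median gene on any array. At 120 min its difference of -0.24 was the smallest of the 51.

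The 5S ribosomal RNA is brought into the subunit by Rpl5p and Rpl11p. *RPL11A* (YPR102C) and *RPL11B* (YGR085C) were lower with HMF by 1.27 and 1.25 log2 units at 10 min (adjusted p = 0.029 and 0.032) and in the mean differed by -1.10 and -1.01. *RPL5* had a similar mean difference of -0.93 with a larger error (SE 0.21, adjusted p = 0.025), and its replicates stood apart, at -0.89 and -1.78 with HMF at 10 min and -1.29 and -1.90 (30 min). In the control it read 0.08 and -0.61 (10 min), -0.05 and -0.28 (30 min), 0.12 and -0.39 (60 min) and -0.11 (120 min), and no HMF value overlapped these.

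Several proteins line or surround the tunnel through which the growing peptide leaves, encoded here by *RPL4A* and *RPL4B*, *RPL17A* and *RPL17B*, *RPL25*, and *RPL26A* and *RPL26B*. All 7 genes were called in the mean of the 4 times, with differences of -1.03 to -0.78, beside 6.25% of all features. At 30 min 2 of the 7 were called, *RPL17A* (YKL180W) and *RPL17B* (YJL177W), beside 1.75% of all features. *RPL17A* had the smallest adjusted p of all 51 genes (mean difference -1.03, SE 0.10, adjusted p = 9.4e-04). *RPL25*, whose protein is also a docking site for factors at the tunnel exit, was among the lowest in the control, with values of -0.77 and -0.31 (10 min), -0.31 and -0.36 (30 min), -0.39 and -0.84 (60 min) and -0.01 (120 min). Its HMF values were -1.57 and -1.14, -1.56 and -1.09, -0.92 and -1.53, and -1.05. The lowest control value was above the highest HMF value, and the mean difference was -0.87 (SE 0.18, adjusted p = 0.015).

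The mobile stalks of the subunit, which handle transfer RNA and elongation factors, rest on Rpl1p and Rpl12p. *RPL1A* (YPL220W), *RPL1B* (YGL135W), *RPL12A* (YEL054C) and *RPL12B* (YDR418W) differed by -1.11 to -0.93 in the mean. At 30 min 3 of the 4 were called, beside 1.75% of all features, and *RPL1B* had an adjusted p of 0.051. The 2 *RPL12* genes were 3.08-fold and 3.11-fold lower with HMF at 30 min. The 6 genes grouped here for bridges between the large and the small subunit were *RPL19A* and *RPL19B*, *RPL23A* and *RPL23B*, and *RPL24A* and *RPL24B*. They differed by -0.90 to -0.73 in the mean. These 6 were picked after their values were seen, and the set may leave out other genes of bridging proteins. A pattern by place therefore cannot be read from them. *RPL28*, the gene whose mutation gives cycloheximide resistance, differed by -0.85 in the mean of the 4 times (adjusted p = 0.0042). The difference was -0.53 (adjusted p = 0.28) after 10 min and -1.36 (adjusted p = 0.028) after 30 min. Its HMF values were -0.95 and -0.68 (10 min) and -1.67 and -1.37 (30 min), against -0.44 and -0.14, and -0.09 and -0.23, in the control.

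Among the other pairs, *RPL7A* (YGL076C), *RPL7B* (YPL198W), *RPL9A* (YGL147C) and *RPL9B* (YNL067W) were 2.57-fold to 3.14-fold lower at 30 min. Their proteins help to fold the large ribosomal RNA. All 4 genes were called at 30 min, beside 1.75% of all features. *RPL27A* (YHR010W) and *RPL27B* (YDR471W) had the same mean difference within 0.01, -0.88 and -0.87. *RPL13A*, *RPL13B*, *RPL20A*, *RPL20B*, *RPL21A* and *RPL21B* were also called at 30 min, with differences of -1.39 to -1.03. *RPL6A* (YML073C) and *RPL6B* (YLR448W) were not (-1.01 and -0.86, adjusted p = 0.068 and 0.073), and their HMF values ran from -1.23 to -0.63 over all times, against -0.40 to 0.14 in the control.

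The lowest mean differences were those of *RPL8A* (YHL033C), *RPL8B* (YLL045C) and *RPL16A* (YIL133C). Rpl8p joins early and is needed for processing of the precursor of the large ribosomal RNA. *RPL8A* read -1.22 and -1.99 (10 min), -1.74 and -2.32 (30 min), -1.23 and -1.46 (60 min) and -1.34 (120 min) with HMF, compared with -0.26 and -0.68, -0.32 and -0.30, -0.10 and -0.54, and -0.12 in the control. The treatments did not overlap, and the mean difference was -1.28 (SE 0.18, adjusted p = 0.0034), or 2.42-fold. *RPL8B* differed by -1.24 (SE 0.22, adjusted p = 0.0083) and *RPL16A* by -1.18 (SE 0.14, adjusted p = 0.0018). *RPL16A* encodes the yeast counterpart of mammalian L13a and read -1.41 and -1.58 (10 min), -1.59 and -1.48 (30 min), -0.87 and -0.77 (60 min) and -1.02 (120 min) with HMF, against -0.37 and 0.10, -0.34 and 0.13, 0.40 and 0.09, and -0.15 in the control.

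The highest mean differences were those of *RPL22A* (-0.53, SE 0.17), *RPL14A* (-0.72, SE 0.20) and *RPL10*. The control replicates of *RPL14A* at 10 min read -0.78 and 0.15. Its other control values were -0.29 and 0.01, -0.14 and -0.18, and 0.04, and with HMF it read -1.10 and -0.73, -1.50 and -0.70, -0.61 and -0.81, and -0.71. The first control replicate of 10 min therefore lay within the HMF range. Without it the mean difference of *RPL14A* was -0.83 (adjusted p = 0.023), and without the second it was -0.60 (adjusted p = 0.12).

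Of the 4 times, 30 min had the largest median difference after centring, but without centring 10 and 30 min were nearly alike. The median difference between HMF and control was -0.89 (10 min), -1.25 (30 min), -0.75 (60 min) and -0.81 (120 min), beside medians over all features of -0.02 to 0.02. Without centring it was -1.56, -1.59, -0.51 and -0.81 at the same times, where the medians over all features were -0.66, -0.37, 0.26 and 0.01, and after quantile normalization it was -0.53 at 10 min and -0.69 and -0.78 at 60 and 120 min, with the largest at 30 min, -1.0005. After centring the difference was largest at 30 min in 45 genes, at 10 min in 4 and at 120 min in 2. At 30 min 29 of the 51 genes were called lower, where 1.75% of all features were (50 genes and 8.5% of all features at an unadjusted p of 0.05), and the group median corresponded to 2.38-fold. At 10 min 4 were called, *RPL11A*, *RPL11B*, *RPL16A* and *RPL17A*, beside 1.5% of all features. With replicate number as a block the count at 10 min was 27 (4.84% of all features), and with a block of replicate number within each time it was 10 (2.99%). No gene was called at 60 min, beside 0.407% of all features, or at 120 min, beside 0.0626%. At an unadjusted p of 0.05 there were 43 genes at 60 min (5.68% of all features) and 25 at 120 min (3.87%). An ordinary fit without moderation called 4 at 60 min (0.611% of all features) and 0 at 120 min (0.0157%) after adjustment. With replicate number as a block, 7 genes were called at 60 min (0.955%), *RPL7A*, *RPL7B*, *RPL9A*, *RPL9B*, *RPL13A*, *RPL17A* and *RPL18B*.

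These counts at single times rested on few arrays. Without any 1 of the 12 replicated arrays, 0 to 2 genes were called at 10 min. At 30 min the count was 0 without either HMF array of 30 min, either control array of 30 min or either control array of 60 min, 9 without either HMF array of 60 min, and 21 or 22 without any of the 10 min arrays. The median difference at 30 min stayed between -1.32 and -1.06 over the same omissions, and the count in the mean of the 4 times between 45 and 49.

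Within the HMF culture, the mean of 42 genes was lowest at 30 min and that of 9 at 10 min. On centred values, 35 genes had a mean at least 2-fold below the median gene after 10 min. The count was 48 after 30 min, 17 after 60 min and 9 after 120 min, with none in any control group. All features were not counted in this way. The values at 60 min were above those at 30 min in 50 of the 51 genes, as in 55.1% of all features, with a median step of 0.39. None of these steps passed the test with limma (10 genes at an unadjusted p of 0.05, all upward, beside 2.82% of all features, and 0 by the ordinary fit after adjustment), nor did the steps from 10 to 30 min, where 0.0939% of all features were called lower. Those steps had a median of -0.22 and were downward in 42 genes, as in 50.3% of all features, with 8 at an unadjusted p of 0.05, all downward (7% of all features), and 0 by the ordinary fit after adjustment. In the control the corresponding steps had medians of 0.13 and -0.06, with 0 genes at an unadjusted p of 0.05 with limma and 1 and 0 by the ordinary fit. The test that the 4 differences of a gene are equal called none of the 51, with 0 at an unadjusted p of 0.05 (4.56% of all features) and a smallest p of 0.068, while the ordinary fit gave 4 at an unadjusted p of 0.05 (5.12% of all features) and 0 after adjustment. A difference between times was therefore not shown for any of the 51 genes by limma.

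The A and B copies of a pair were compared on the same array, where the level of the array cancels. The proteins of many pairs are identical or nearly so, and the probe sequences were not used here, so RNA of one copy binding to the probe of the other cannot be told apart from a shared change and the 2 values of a pair are uncertain as separate measurements. In 18 of the 23 pairs the mean difference between HMF and control was the same within 0.1 log2 units in both copies, and in 21 within 0.15. The median distance between copies was 0.05, compared with 0.14 over the 1252 pairs of genes that are not paralogs. Over the 14 arrays the correlation between copies (Pearson's r) ran from 0.80 to 0.99 with a median of 0.98, where the median over pairs that are not paralogs was 0.89, and these correlations contain the treatment difference. The A copy had the lower mean difference in 18 of 23 pairs, in 14 without the 120 min arrays, and in 14 to 19 without any 1 of the replicated arrays, most of these distances being under 0.1.

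**Figure D3:**
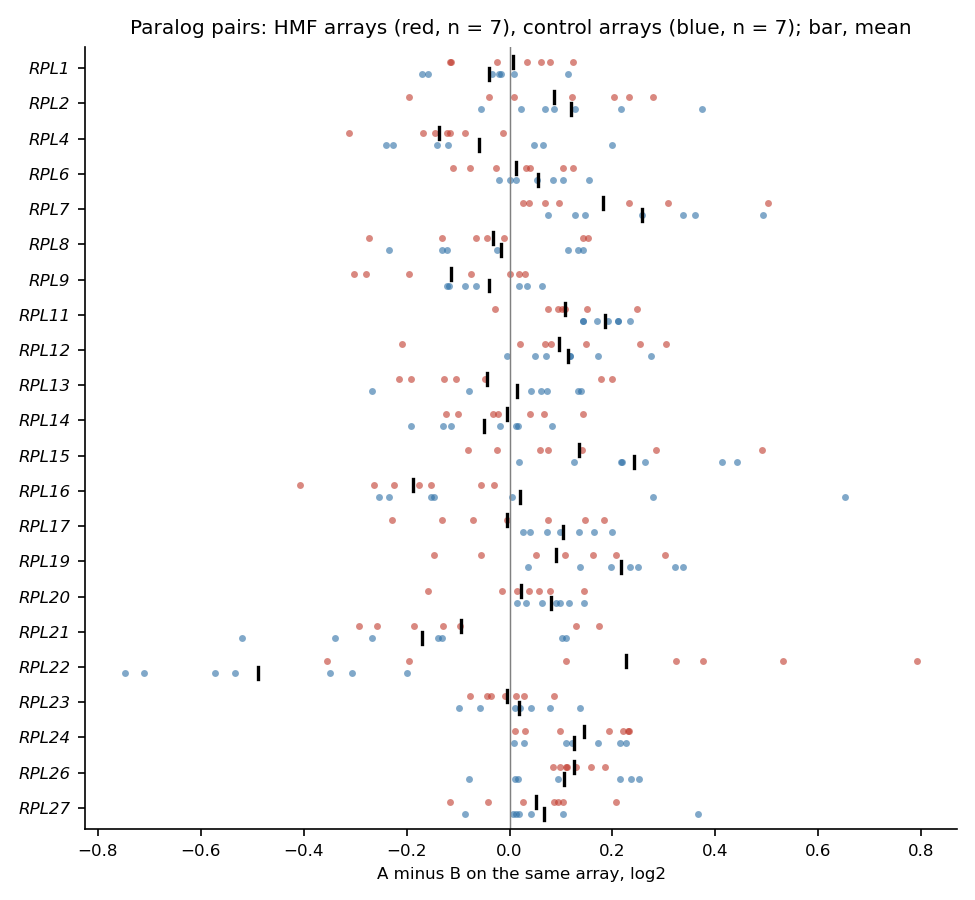
Difference between the A and the B copy on the same array (log2, horizontal axis) for the pairs reported singly, with the 7 HMF arrays in red, the 7 control arrays in blue and a bar at each mean. *RPL22* is the pair with means on opposite sides of 0 that lie furthest apart, at 0.23 with HMF and -0.49 in the control.

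An exact two-sided permutation of the treatment labels within each time has a smallest possible p of 0.0046. Adjusted over the 23 pairs, a single pair at that value would have an adjusted p of 0.106, so the design could not call 1 pair alone at 0.05. At an unadjusted p of 0.05 there was 1 pair, *RPL22*. Besides treatment, the sign of A minus B was shared by most arrays in some pairs, with the A copy above the B copy on all 14 arrays in *RPL7* and *RPL24* and on 13 in *RPL11* and *RPL26*. These differences are in the ratio to 0 min and include any dye effect of the probes.

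The *RPL22* copies departed most from each other. Rpl22p is not essential in yeast, and it is known to bind the intron of *RPL22B* and to hinder its splicing. *RPL22A* read -1.29 and -1.10 (10 min), -1.27 and -0.49 (30 min), -0.99 and -1.34 (60 min) and -0.81 (120 min) with HMF. In the control *RPL22A* read -0.74 and -0.78, -0.42 and -0.77, -0.55 and -0.87, and 0.14. It was thus the lowest of the 51 genes on 4 of the 7 control arrays, and below the group median on all of them except that of 120 min. *RPL22B* read -2.08 and -1.42, -1.65 and -1.02, -1.10 and -1.15, and -0.45 with HMF, against -0.39 and -0.07, 0.11 and -0.02, 0.02 and -0.57, and 0.34 in the control. At 10 min with HMF it was the lowest of the 51 genes in replicate 1.

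The A copy of *RPL22* was below the B copy on all 7 control arrays, by 0.20 to 0.75, and above it on 5 of the 7 HMF arrays. The mean of A minus B over the 7 HMF arrays was 0.23 ± 0.40 (SD, n = 7), and over the 7 control arrays it was -0.49 ± 0.21 (SD, n = 7). Averaged with equal weight per time, the response of the 2 copies differed by 0.61 (exact permutation p = 0.014, adjusted p = 0.32 over 23 pairs, where 1 pair alone could reach no less than 0.106). It was 0.55 to 0.66 without any 1 of the replicated arrays and 0.86 without the 120 min arrays. The mean difference between HMF and control was -1.14 for *RPL22B* (SE 0.18, adjusted p = 0.0051), and at 30 min it was -1.38 for *RPL22B* and -0.28 for *RPL22A* (adjusted p = 0.071 and 0.72). Without HMF replicate 2 of 30 min, where *RPL22A* read -0.49, the mean difference of *RPL22A* was -0.63 and was called (adjusted p = 0.032).

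**Figure D4:**
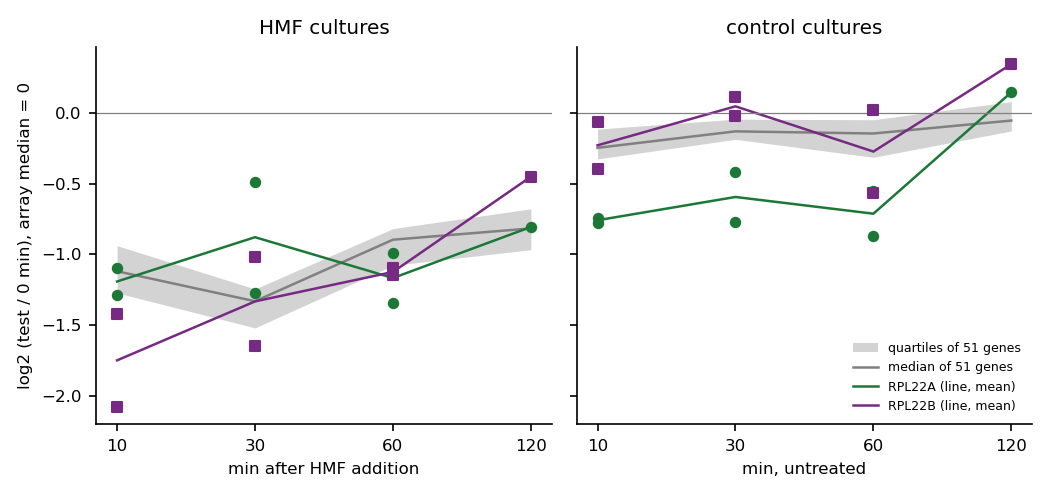
Centred log2 ratios to 0 min of *RPL22A* (green circles) and *RPL22B* (purple squares) on each array by time, in HMF cultures on the left and control cultures on the right, with the median and quartiles of the 51 genes in grey. In the control *RPL22A* reads -0.87 to -0.42 up to 60 min, below *RPL22B* on each array, and with HMF at 10 min *RPL22B* is the lower copy.

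In the next 3 pairs the copies differed less in response. For *RPL16* the response of the A copy was lower by 0.20 than that of *RPL16B* (YNL069C) (exact permutation p = 0.14). A minus B was below 0 on every HMF array, at -0.19 ± 0.13 (SD, n = 7). Over the control arrays it was 0.02 ± 0.33 (SD, n = 7), and control replicate 2 of 30 min gave 0.65. Without that array the difference in response was -0.08, and without control replicate 1 of 30 min it was -0.31 (exact permutation p = 0.032, adjusted p = 0.37). For *RPL19*, *RPL19A* (YBR084C-A) responded by -0.88 and *RPL19B* (YBL027W) by -0.73 (exact permutation p = 0.12), and for *RPL15*, *RPL15A* (YLR029C) by -1.14 and *RPL15B* (YMR121C) by -1.02 (exact permutation p = 0.21). The adjusted p of these pairs was 0.64 to 0.75, and A minus B of the HMF and control arrays overlapped in each.

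Replicates 1 and 2 differed in the same direction in all 6 replicated groups for some genes, in a share of the 51 no larger than that of all features. *RPL4A*, *RPL4B* (YDR012W), *RPL5*, *RPL8A*, *RPL8B*, *RPL15A* and *RPL15B* were on average 0.25 to 0.56 lower in replicate 2 than in replicate 1, of which *RPL4B*, *RPL8B*, *RPL15A* and *RPL15B* were lower in all 6 groups, as were 10.2% of all features. *RPL4A* read -1.02 and -2.12 with HMF at 10 min, -1.36 and -2.10 (30 min), and 0.00 and -0.98 in the control at 10 min. *RPL12A*, *RPL12B* and *RPL18B* (YNL301C) were higher in replicate 2 in all 6 groups, by 0.28 to 0.36 on average, as were 8.67% of all features. *RPL4A*, *RPL4B*, *RPL8B* and *RPL5* had the largest standard errors of the 51 genes, 0.25, 0.23, 0.22 and 0.21. At least 1 of *RPL4A*, *RPL4B*, *RPL5* and *RPL14B* lost its call in the mean of the 4 times without each of the 12 arrays in turn, except control replicate 2 of 10 min. The median SD between replicates was 0.22 over the 51 genes and 0.34 over all features.

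Other genes of the ribosome served as a comparison, described by counts without a test between lists. Of the 30 further large-subunit genes, 22 were called lower in the mean of the 4 times, with a median of -0.72, and none at 30 min (median -0.90, 22 at an unadjusted p of 0.05 and a smallest adjusted p of 0.051), where 5 were called with replicate number as a block and 6 with the block within each time. Of 56 small-subunit genes 48 were called, with a median of -0.88, and 22 at 30 min with a median of -1.16 (37 and 33 with the same blocks). Over all features 6.25% were called lower in the mean and 1.75% at 30 min. With these blocks the shares at 30 min were 3.23% and 2.4%. The 2 treatments did not overlap, HMF being lower, in 11 of the 30 and 39 of the 56 genes, as in 3.84% of all features.

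Of 12 genes for regulators of ribosomal protein genes only *RAP1* (YNL216W), which encodes the activator that binds their promoters, was called in the mean of the 4 times. This is 8.33% of the 12 genes, near the 6.25% of all features that were called lower. *RAP1* read -0.62 and -0.79 (10 min), -0.85 and -1.06 (30 min), -1.14 and -1.13 (60 min) and -0.63 (120 min) with HMF. In the control it stayed between -0.09 and 0.17, so the treatments did not overlap. The mean difference was -0.91 (SE 0.11, adjusted p = 0.0016), near the median of the large-subunit genes, and its largest difference, -1.22, was at 60 min (adjusted p = 0.028, not called with a block of replicate number within each time). Without centring *RAP1* was not called in the mean of the 4 times (-1.10, adjusted p = 0.096). The other 11 (*FHL1*, *IFH1*, *SFP1*, *HMO1*, *CRF1*, *ABF1*, *TOD6*, *DOT6*, *STB3*, *SCH9* and *TOR1*) had mean differences of -0.22 to 0.04 with adjusted p of 0.52 to 0.97.

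Of 16 genes for factors that chaperone large-subunit proteins or carry the 60S particle through assembly and export, *RRB1* (YMR131C), for the chaperone of Rpl3p, and *NMD3* (YHR170W), for an export adaptor, were called lower and *REH1* (YLR387C), for a cytoplasmic maturation factor, higher in the mean of the 4 times. The 2 genes called lower are 12.5% of the 16, beside 6.25% of all features. After quantile normalization *RRB1* and *NMD3* were not called (adjusted p = 0.16 and 0.12), and *NMD3* lost its call without 6 of the 12 replicated arrays in turn (adjusted p up to 0.068). Without centring *RRB1*, *NMD3* and *REH1* were not called (adjusted p = 0.16, 0.23 and 0.37). *RRB1* read -2.07 and -2.48 with HMF at 10 min and -0.51 and -0.25 (30 min), while its partner gene *RPL3* read -0.69 and -1.12, and then -1.24 and -1.25. In the control *RRB1* lay between -0.68 and 0.09. The median of the 16 differences was -1.12 after 10 min and 0.12 after 30 min, where the large-subunit genes had -0.89 and -1.25. The test that the 4 differences of a gene are equal called none of the 16 (smallest adjusted p = 0.86). At an unadjusted p of 0.05 it gave 3, beside 4.56% of all features. At 10 min *RRB1* and *NMD3* were called, at -1.89 and -1.85 (adjusted p = 0.022 for both), beside 1.5% of all features called lower. The replicate block called 7 of the 16 genes lower (4.84% of all features) and the block within each time 6 (2.99%). From 10 to 30 min with HMF *RRB1* rose by 1.90 (adjusted p = 0.046, 0.219% of all features called higher), and 14 of the 16 steps were upward at an unadjusted p of 0.05 (8.78% of all features). With replicate number as a block 10 of these steps were called (2.07% of all features), and with the block within each time 8 (2.18%). *REH1* was higher by 0.88 (SE 0.11, adjusted p = 0.0023, where 5.09% of all features were called higher) and at 30 min by 1.08 (adjusted p = 0.038, 0.814% of all features, not called with the block within each time), and it read 0.66 to 1.48 with HMF against -0.14 to 0.28 in the control. The other 13 (*SQT1*, *SYO1*, *ACL4*, *BCP1*, *RPF2*, *RRS1*, *LSG1*, *TIF6*, *ARX1*, *REI1*, *RLP24*, *RLP7* and *MRT4*) had mean differences of -0.57 to 0.00 (adjusted p of 0.079 to 0.99). Of these, *LSG1* was called lower with the replicate block (adjusted p = 0.012) and with the block within each time (0.022), and *RLP24* with the latter (0.046).

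**Figure D5:**
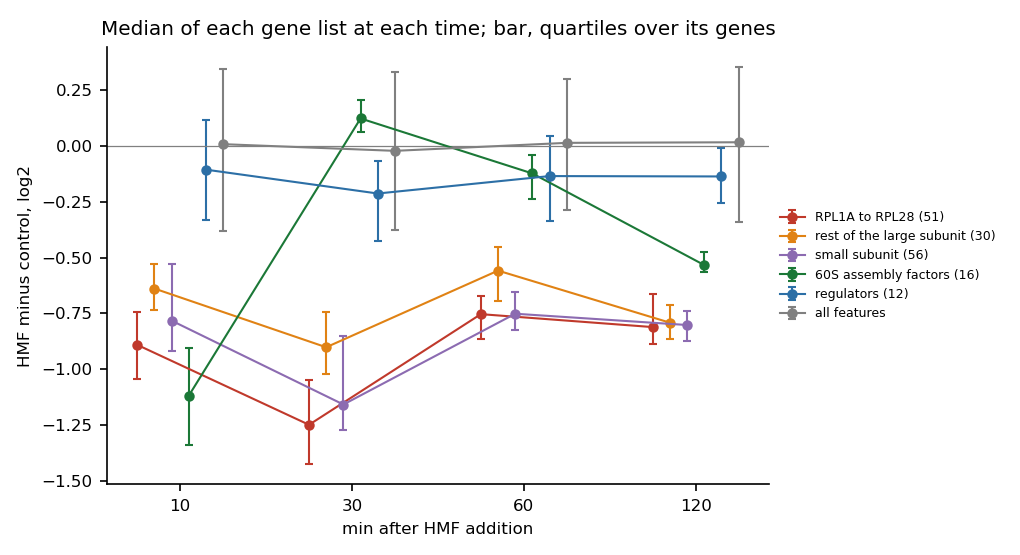
Median difference between HMF and control (log2, bar of quartiles over genes) at each time for the 51 large-subunit genes, the other ribosomal genes, 16 assembly factor genes, 12 regulator genes and all features. The large-subunit median goes from -0.89 (10 min) to -1.25 (30 min), and the assembly factor median from -1.12 to 0.12.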

How the data were processed

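The authors scanned 2-color long-oligonucleotide arrays, subtracted background from the median signal, normalized each slide to a spike-in control and deposited 1 log2 ratio (test over 0 min reference) per open reading frame and array. How duplicate spots were combined is not given in the sources used here. Of 6387 features 5840 were paired with a symbol. Here each array was centred on its median, and 1 mean per group of treatment and time (8 groups) was fitted with limma 3.58.1 in R 4.3.3 (default eBayes, 6 residual degrees of freedom), which was tested on simulated data. Single arrays at 120 min were assumed to vary like the other groups. Adjustment of p values was by Benjamini-Hochberg over all features, with a limit of 0.05. Pairs were tested by exact permutation within time, which also takes arrays of different times as independent.

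This group of genes was taken up, and the lists were chosen, with earlier results of these data known. Values of 1 of the genes are not reported here, though it is in all counts and medians. Singled out for description were the 3 lowest and 3 highest mean differences, the 5 unpaired genes and the 4 pairs whose copies differed most. Not every array value of these genes is given. The genes grouped by place in the ribosome were grouped after their values were seen. Same-numbered replicates of HMF and control varied together (correlation of replicate deviations over all features 0.31, 0.28 and 0.17 at 10, 30 and 60 min). Between HMF and control of different times the correlation over all features was 0.10 to 0.36, so it was not particular to a shared time. Over the large-subunit genes alone the correlation was 0.81, 0.33 and 0.29 at 10, 30 and 60 min. Between HMF and control of different times it was then 0.10 to 0.80. Between HMF groups it ran from -0.19 (10 with 60 min) to 0.86 (10 with 30 min). Replicates of these genes thus varied together strongly between some groups and little between others. Replicate number was therefore also fitted as a block.

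Alternatives were no centring, quantile normalization, 2 kinds of block, robust eBayes, a 2-fold criterion, an ordinary 2-way fit, no 120 min arrays, and each replicated array left out.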

Additional observations from a re-analysis of the deposited data

How the results depend on the processing

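The count in the mean of the 4 times was 43 to 51 genes under every alternative except no centring, which gave 7. The share of all features called lower was 4.4% to 12.9%, and 1.46% without centring, the fits with a replicated array left out not included. The median difference was -1.12 without centring and -0.73 after quantile normalization. At 10 min the count was 0 without centring (0.579% of all features) and after quantile normalization (0.0626%). It was 27 with the replicate block (4.84%), 10 with the replicate block within each time (2.99%), and 11 by the ordinary fit after adjustment (1.88%). At 30 min the count was 0 without centring (0.188%) and 2 after quantile normalization (0.219%). At 60 min it was 7 with the replicate block (0.955%) and 4 by the ordinary fit after adjustment (0.611%). The ordinary fit without adjustment gave 45, 50, 41 and 29 genes at 10, 30, 60 and 120 min (10.6, 8.41, 5.98 and 3.95% of all features), 11 for HMF at 30 against 10 min (7.14%), 14 for HMF at 60 against 30 min (3.29%), 1 for control at 30 against 10 min (0.658%) and 4 for the interaction (5.12%). Leaving out each replicated array gave 45 to 49 genes in the mean, 0 to 2 at 10 min and 0 to 22 at 30 min, with 0 at 60 and at 120 min. The cause of these changes was not tested. The replicate block changed no other count of the 51 genes by over 1.5 times. Over all features it called 37 lower and 132 higher for HMF at 30 against 10 min, in place of 6 and 14.

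Mean differences near 0 changed sign, in genes that no fit called. Without centring they were -0.17 for *HMO1*, -0.16 for *TOD6* and -0.19 for *REI1*, after quantile normalization 0.0498 for *FHL1*, and without the 120 min arrays 0.0298 for *STB3*. With arrays left out in turn they ran from -0.17 to 0.016 for *FHL1*, -0.0675 to 0.10 for *HMO1*, -0.11 to 0.0205 for *CRF1*, -0.0795 to 0.15 for *TOD6*, -0.24 to 0.12 for *DOT6*, -0.26 to 0.12 for *STB3* and -0.0683 to 0.0752 for *REI1*. The large-subunit genes singled out for description kept their direction under every alternative. Beside calls lost without centring, *RPL5* lost its call after quantile normalization (adjusted p = 0.081), by the ordinary fit (0.055) and without 4 of the 12 arrays (up to 0.063), and *RPL25* after quantile normalization (0.059), as did *RRB1* (0.16) and *NMD3* (0.12). *RPL10* lost its call under the 2-fold criterion, with its adjusted p unchanged. Signal intensities were not used, so the part of dim or saturated spots was not examined, and values at 120 min have no replicate.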
